A study of Mus musculus with 18 samples.

Results

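The genes described here are the Wnt ligands, their Frizzled receptors, and the secreted antagonists of the Sfrp and Dkk families in mouse heart. They were taken from the deposited gene count table as every protein-coding entry with a name of the form Wnt, Fzd, Sfrp1 to Sfrp5 or Dkk1 to Dkk4 followed by its number, whatever its values. This gave 37 of the 54532 genes in the table, made up of 19 Wnt, 10 Fzd, 4 Sfrp and 4 Dkk genes. Of these, 25 passed the filter on low counts and were tested (10 Wnt, 9 Fzd, 4 Sfrp and 2 Dkk).

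The study measured poly(A)-selected RNA from the apex of the heart of wild-type mice in 18 libraries, 3 in each of 6 groups. Batch LC held a control group, a group given an Lmna shRNA (named L881 in the sample titles) and a group given the same shRNA with lamin C. Batch LA held its own control group, its own Lmna shRNA group and a group given the shRNA with lamin A. The stated purpose was to test added lamin A or lamin C, delivered by the rAAV9 viral vector, in a dilated cardiomyopathy produced by knocking down Lmna, the gene that encodes both lamins. What the controls received, the age and sex of the animals and the promoters of the vectors are not given in the sources used here. Nothing in the labels states that the libraries came from separate animals, so the p-values measure the spread between these libraries. Each treated group was compared with the control of its own batch.

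Wnt proteins are secreted lipid-modified ligands that bind Frizzled receptors on the cell surface. With the co-receptors Lrp5 and Lrp6 they keep beta-catenin from being degraded, and through Ror2 and related receptors they act on cell polarity and calcium without it. Sfrp proteins carry a Frizzled-like domain and bind Wnts outside the cell, whereas Dkk1, Dkk2 and Dkk4 bind Lrp5 and Lrp6. Dkk3 is a divergent relative that does not share that activity. In the adult heart the pathway is known for low basal activity and for changing after injury, in large part in fibroblasts.

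Libraries held 31418657 to 41259968 counts, and 17876 genes were tested. Lmna itself was not lower in the libraries labelled Lmna shRNA. It stood at 122, 128 and 120 CPM (counts scaled to the size of the library) in the controls of batch LC against 137, 134 and 115 with the shRNA, and at 120, 120 and 112 in the controls of batch LA against 127, 122 and 130. With lamin C it stood at 1320, 1060 and 1370 CPM and with lamin A at 556, 537 and 501 CPM. Lmna was thus higher in the libraries labelled with lamin C or lamin A, while the direction of each shRNA comparison depends on the labels alone. Mitochondrially encoded genes took 25.2% to 27% of the counts in the 6 control libraries and 13% to 15.6% in the 6 shRNA libraries, so levels are given with factors of the trimmed mean of M-values (TMM) that adjust for composition.

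In control hearts the receptors were the most abundant of these transcripts. Levels are compared between genes in FPKM as deposited, a number of fragments per kilobase of transcript scaled by library, though not by total counts alone. Fzd4, the receptor for norrin as well as Wnts in blood vessels, averaged 11.5 ± 1.13 FPKM (SD, n = 3) in batch LC and 10.2 ± 0.554 in batch LA. Fzd6 followed at 7.65 ± 0.0815 and 8.44 ± 0.357, and the ranges of these genes did not overlap with each other in batch LC or batch LA. Sfrp1 came next at 3.11 ± 0.578 and 3.51 ± 0.357. Below it, Fzd8 (2.31 ± 0.304), Wnt9a (2.19 ± 0.591), Fzd1 (2.14 ± 0.23), Wnt5a (2.13 ± 0.116) and Fzd7 (1.95 ± 0.312) overlapped in their ranges in batch LC. Wnt9a and Wnt5a had the highest means of the ligands. They overlapped in batch LC, while in batch LA every Wnt9a value (2.51 to 2.68 FPKM) lay above every Wnt5a value (2.08 to 2.36 FPKM). Wnt5b (1.71 ± 0.164) lay below every Wnt5a library in batch LC. At the other end, 12 genes did not pass the filter, namely Wnt1, Wnt2b, Wnt3, Wnt3a, Wnt7b, Wnt8a, Wnt8b, Wnt10a, Wnt16, Fzd10, Dkk1 and Dkk4. Their totals over all 18 libraries ran from 0 counts for Wnt8a to 96 counts for Wnt2b, and they were not tested. Among them Wnt1 had 0 counts in all 6 control libraries, 5, 2 and 2 with the shRNA in batch LC, 4, 8 and 3 with the shRNA in batch LA, 6, 0 and 0 with lamin C and 5, 8 and 7 with lamin A. The 20 counts with lamin A were 5.3-fold above a floor of 3 counts over the control group. Wnt1 was singled out after its values were seen.

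With the shRNA in batch LC, 11 of the 25 tested genes were higher and 2 were lower than in the control (edgeR quasi-likelihood test, Benjamini-Hochberg adjusted p under 0.05). In batch LA, 12 were higher and 4 were lower. Over all genes tested, 62.9% were called in batch LC (33.3% higher and 29.6% lower) and 61.4% in batch LA (32.4% higher and 29% lower), so the 13 and 16 of 25 called here are read as near the background and not as a result about these genes. With library totals alone in place of TMM the split was 20 higher and 1 lower in batch LC and 18 higher and 2 lower in batch LA. Their direction is described by the median log2 fold change, which was 0.63 in batch LC and 0.70 in batch LA over the 25 genes, against 0.05 over all genes in both. The 25 include Wnt7a, Dkk2, Wnt4 and Wnt2, which passed the filter through libraries where they are high. That can raise the medians and the counts of higher genes, so these are given as a description only. The genes called higher in both batches were Sfrp1, Sfrp2, Sfrp4, Dkk3, Fzd1, Fzd2, Fzd7, Wnt7a and Wnt9a. Wnt5a and Fzd6 were called lower in both. Over all genes tested, the shRNA and control libraries did not overlap for 64.9% in batch LC and 67.8% in batch LA. Among the 25 genes this held for 12 and 18, so groups that do not overlap are not by themselves a result. Against the shRNA the share was 60.4% with lamin C and 45.2% with lamin A (16 and 15 of the 25). Against control it was 30.1% and 56% (7 and 14 of the 25). The batches have separate control and shRNA libraries. In the labels, the identifying number of the third control of each batch lies far from those of the other controls of its batch and next to that of the third control of the other batch, and comparisons were therefore also made without both.

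**Figure D1:**
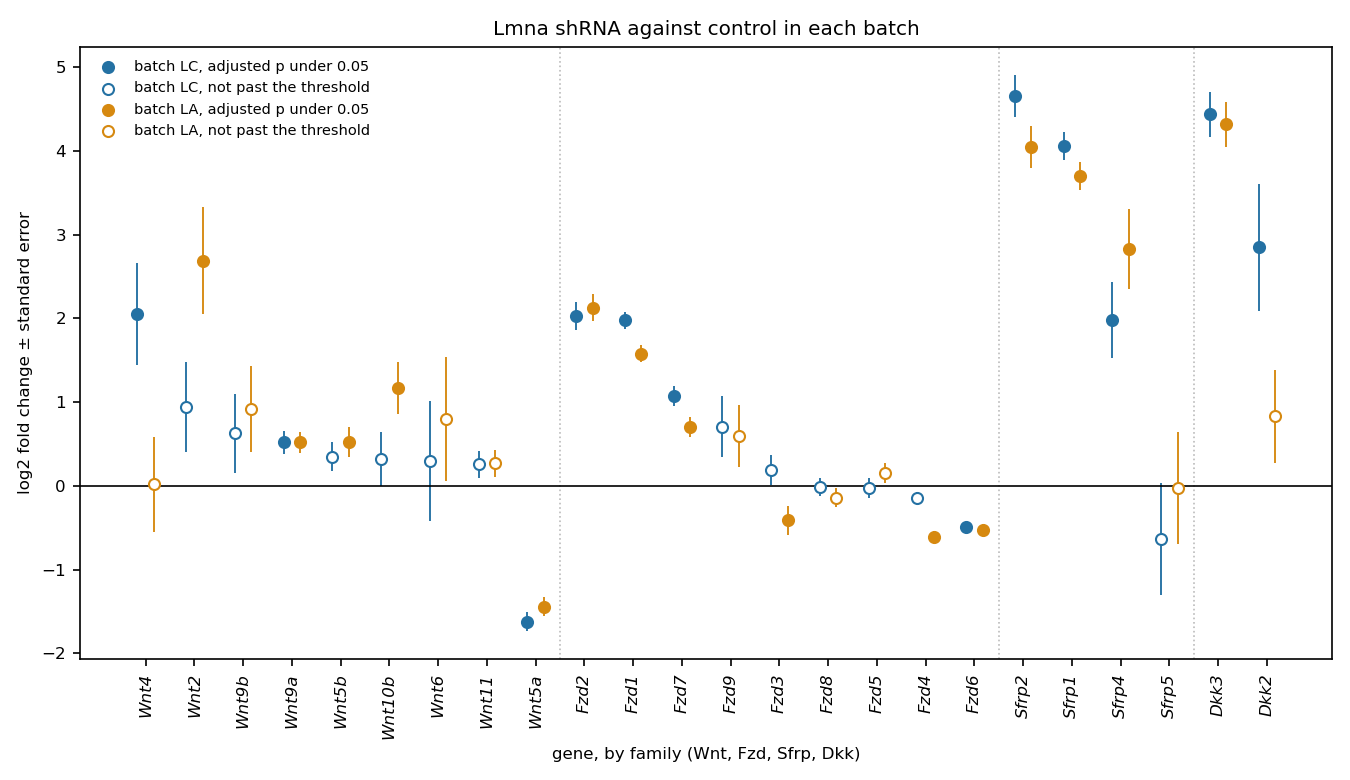
Log2 fold change ± standard error of 24 tested genes with Lmna shRNA against the control of the same batch (blue, batch LC; orange, batch LA; filled points, adjusted p under 0.05). The antagonists Sfrp1, Sfrp2 and Dkk3 lie highest with values from 3.70 to 4.66, and Wnt5a lies lowest at -1.62 and -1.44. Wnt7a is left out because its control libraries held no counts.

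Among the ligands the main change was a fall of Wnt5a, the prototype ligand of beta-catenin-independent Wnt signalling. Wnt5a stood at 17.6, 16 and 17.5 CPM in the controls of batch LC and at 5.5, 6.27 and 4.89 CPM with the shRNA. In batch LA it stood at 16.9, 18.9 and 16.6 CPM in the controls and 6.18, 5.5 and 7.63 CPM with the shRNA. Every shRNA library was below every control library of its batch. The log2 fold changes were -1.62 ± 0.11 (SE; adjusted p = 1.34e-10) and -1.44 ± 0.11 (adjusted p = 6.49e-10). The gene lies at chr14:28504750-28527448 on the plus strand and overlaps Gm2670, an antisense transcript averaging 2 counts.

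Wnt7a was not seen in any control library. It had 26, 25 and 39 counts with the shRNA in batch LC and 23, 13 and 31 in batch LA. Against a floor of 3 counts over the control group, the sums of 90 and 67 counts were 20.9-fold and 15.7-fold higher (edgeR adjusted p = 4.8e-05 and 0.000136). The floor allows for counting error in the controls alone, not in these sums. Floors and exact intervals of counts do not cover the spread between libraries. Wnt7a passed the filter through the shRNA libraries alone, so its call is given as a description only.

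Wnt9a, a ligand with a part in heart valve and joint formation, rose by a similar amount in both batches. Its controls stood at 6.04, 6.53 and 9.74 CPM in batch LC and at 8.63, 9.11 and 8.51 CPM in batch LA, and its shRNA libraries stood at 11.4, 9.63 and 10.9 CPM and at 12.9, 11.7 and 13.1 CPM. One control library of batch LC lay within the range of the shRNA libraries, and the groups of batch LA did not overlap. The log2 fold change was 0.52 ± 0.14 in batch LC (adjusted p = 0.00279) and 0.52 ± 0.13 in batch LA (adjusted p = 0.00244).

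The remaining ligands changed in 1 batch only or did not pass the test. Wnt4 was called higher in batch LC, where its 3 control libraries held 3, 1 and 4 counts and its shRNA libraries 10, 16 and 22 (log2 fold change 2.05 ± 0.61, adjusted p = 0.00691). In batch LA it held 6, 4 and 8 counts against 9, 13 and 4 (0.02 ± 0.57). Wnt2 was called in batch LA, at 3, 3 and 0 counts against 17, 25 and 15 (2.69 ± 0.64, adjusted p = 0.00117), and had 0.94 ± 0.54 in batch LC. Wnt10b was called in batch LA, at 0.446, 0.555 and 0.757 CPM against 1.25, 1.6 and 1.11 CPM (1.17 ± 0.31, adjusted p = 0.00261), and had 0.32 ± 0.32 in batch LC. For none of the 25 genes did the shRNA effect differ between the batches past the threshold, as described further on, so these calls in a single batch are not shown to be particular to it. The control libraries of Wnt4, and those of Wnt2 in batch LA, held too few counts for the filter. Wnt4 and Wnt2 passed it through other libraries, so their calls here and below are given as a description only. Wnt11, Wnt9b and Wnt6 had log2 fold changes of 0.26 to 0.63 in batch LC and 0.27 to 0.92 in batch LA, none past the threshold.

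Wnt5b was called higher in batch LA alone (0.53 ± 0.18, adjusted p = 0.0128; 0.35 ± 0.17 in batch LC). The call in batch LA was lost without the second control (log2 fold change 0.4, adjusted p = 0.083) and without the third shRNA library (0.4, adjusted p = 0.0819). In batch LC it passed without the third shRNA library (0.46, adjusted p = 0.041). Wnt5b lies on the minus strand at chr6:119432531-119544347 and overlaps Fbxl14, which encodes an F-box protein on the other strand and averaged 17.4 CPM in the controls of batch LC. Whether the counting used strand is not stated, so the Wnt5b counts are uncertain. Fbxl14 had log2 fold changes of 0.09 ± 0.10 and 0.08 ± 0.10 in the 2 batches.

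The Frizzled receptors moved in opposite directions. Fzd1 rose from 8.95, 8.32 and 10.2 CPM to 39.2, 33.8 and 35.6 CPM in batch LC, and from 10.7, 11.5 and 10.8 CPM to 34.8, 31.9 and 31.9 CPM in batch LA. The groups were far apart in both batches, with log2 fold changes of 1.98 ± 0.10 (adjusted p = 2.89e-12) and 1.58 ± 0.10 (adjusted p = 4.61e-11). Fzd2 rose from 3.27, 4.25 and 5.15 CPM to 18.5, 17.4 and 15.8 CPM in batch LC, and from 4.62, 4.57 and 5.3 CPM to 20.5, 21.2 and 21.6 CPM in batch LA. Again no library of one group reached the range of the other, and the log2 fold changes were 2.03 ± 0.17 (adjusted p = 2.28e-09) and 2.13 ± 0.16 (adjusted p = 9.05e-10). Fzd7, which with Fzd1 and Fzd2 forms the most closely related branch of the family, rose from 7.38, 9.47 and 10.2 CPM to 19.9, 17.4 and 19.2 CPM in batch LC. In batch LA Fzd7 rose from 11, 10.5 and 11.2 CPM to 20.2, 16 and 16.8 CPM. Its groups were also separate, with smaller log2 fold changes of 1.07 ± 0.12 (adjusted p = 1.59e-07) and 0.70 ± 0.12 (adjusted p = 3.16e-05).

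Fzd6, a receptor known for its part in planar cell polarity, fell slightly in both batches. It stood at 38, 37.3 and 37.8 CPM in the controls of batch LC against 26.2, 26.3 and 28 CPM with the shRNA, and at 41.8, 43.2 and 39.6 CPM against 28.8, 28.5 and 29.1 CPM in batch LA. No libraries overlapped, and the log2 fold changes were -0.49 ± 0.05 (adjusted p = 4.87e-08) and -0.53 ± 0.05 (adjusted p = 1.56e-08). Fzd4 fell in batch LA, from 66.3, 73.8 and 69.3 CPM to 47.8, 44.6 and 44.8 CPM (-0.61 ± 0.07, adjusted p = 7.55e-07). In batch LC its groups overlapped, at 82.2, 84 and 69.7 CPM against 67.8, 68.6 and 77.7 CPM (-0.14 ± 0.07, adjusted p = 0.104). The Fzd4 value in batch LC passed the threshold without the third control (-0.23, adjusted p = 0.00962) or the third shRNA library (-0.2, adjusted p = 0.0295). The call of Fzd6 depends on the scaling of the libraries, and that of Fzd4 in batch LA does not. With library totals alone in place of TMM, which moved the median of all genes from 0.05 to 0.47 in batch LC and to 0.48 in batch LA, Fzd6 had -0.06 (adjusted p = 0.273) and -0.09 (adjusted p = 0.113), whereas Fzd4 had -0.17 (adjusted p = 0.0422) in batch LA and 0.29 in batch LC.

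Fzd8 had log2 fold changes of -0.01 ± 0.11 in batch LC and -0.14 ± 0.11 in batch LA, and Fzd5 had -0.02 ± 0.12 and 0.15 ± 0.12, none past the threshold. Fzd9, at 0.979 ± 0.624 CPM in the controls of batch LC and 1.61 ± 0.342 CPM with the shRNA, did not pass either (0.71 ± 0.37, adjusted p = 0.0996). In batch LA it had 0.60 ± 0.37 (adjusted p = 0.167). It passed in batch LC without the second control (1.33, adjusted p = 0.00566) and in batch LA without the third control (1.17, adjusted p = 0.0153). Fzd3 was called lower in batch LA (-0.41 ± 0.17, adjusted p = 0.0469) and had 0.19 ± 0.18 in batch LC. Its call was lost on leaving out any 1 of the 6 libraries of that comparison, with adjusted p from 0.0559 to 0.126.

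The make-up of the Frizzled transcripts also differed. By FPKM, Fzd4 took 40.5% ± 3.59 (SD, n = 3) of the summed Frizzled level in the controls of batch LC and 28% ± 1.83 with the shRNA, and 34.8% ± 0.997 and 19.6% ± 0.255 in batch LA. Fzd6 went from 27.1% ± 0.999 to 14.7% ± 0.475 and from 28.9% ± 1.03 to 17.2% ± 0.471. Over the same groups Fzd1 went from 7.58% ± 0.96 to 22.7% ± 1.35 and from 8.78% ± 0.154 to 22.5% ± 0.56. Fzd2 went from 3.99% ± 0.902 to 12.4% ± 1.1 and from 4.43% ± 0.419 to 16.6% ± 0.855. These shares do not depend on the scaling between libraries.

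**Figure D2:**
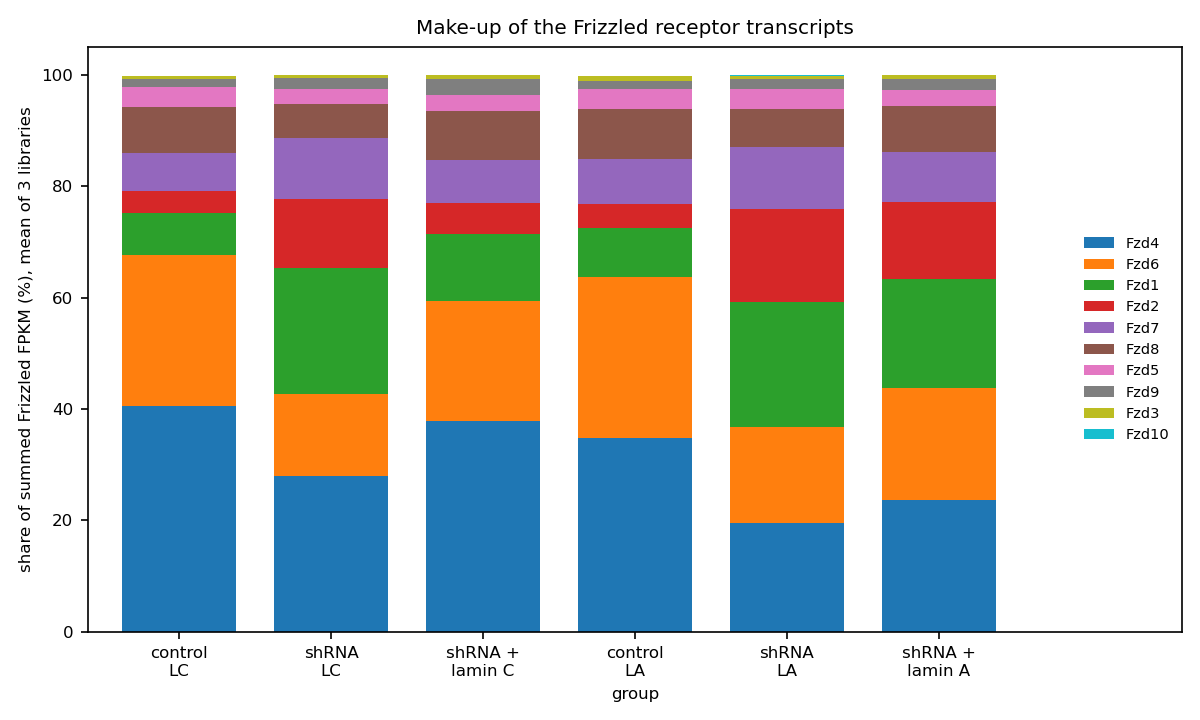
Share of each Frizzled gene in the summed Frizzled FPKM (%, mean of 3 libraries) in the 6 groups. Fzd4 and Fzd6 are the lower bands and shrink with the shRNA, where Fzd1 and Fzd2 take 22.7% and 12.4% in batch LC and 22.5% and 16.6% in batch LA.

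Fzd1, Fzd2 and Fzd7 are genes of a single exon, at chr5:4753839-4758035 on the minus strand, chr11:102604396-102608058 on the plus strand and chr1:59482424-59486955 on the plus strand. The 250 bases before the RefSeq start (GRCm38.p6) are shown for the receptors and the antagonist that rose in both batches and have an entry in the promoter table, to let their sequence composition be compared. They cover chr5:4758217-4758466 for Fzd1, chr1:59481897-59482146 for Fzd7 and chr3:83766071-83766320 for Sfrp2, each written 5′ to 3′ on the gene's own strand. Capitals mark the letters CTTTGA, a form of the site bound by the TCF and LEF factors of the beta-catenin pathway, read on either strand.
Fzd1: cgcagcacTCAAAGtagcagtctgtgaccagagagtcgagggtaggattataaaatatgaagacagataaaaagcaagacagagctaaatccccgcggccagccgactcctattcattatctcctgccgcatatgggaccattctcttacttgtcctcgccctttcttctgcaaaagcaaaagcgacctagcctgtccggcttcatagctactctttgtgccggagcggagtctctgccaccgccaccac
Fzd7: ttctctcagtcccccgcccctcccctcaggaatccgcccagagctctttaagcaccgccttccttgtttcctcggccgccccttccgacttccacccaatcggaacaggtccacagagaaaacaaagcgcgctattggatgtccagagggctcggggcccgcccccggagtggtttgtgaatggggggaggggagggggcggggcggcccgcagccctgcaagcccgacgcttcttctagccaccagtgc
Sfrp2: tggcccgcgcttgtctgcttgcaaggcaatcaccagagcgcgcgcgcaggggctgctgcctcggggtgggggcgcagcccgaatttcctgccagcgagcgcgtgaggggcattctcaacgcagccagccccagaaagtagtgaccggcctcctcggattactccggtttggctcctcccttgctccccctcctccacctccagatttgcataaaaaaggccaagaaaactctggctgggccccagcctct
Fzd1 holds 1 match, near the far end of its window, and Fzd7 and Sfrp2 hold none in these letters. Other forms of the site were not searched, so a window without a match may still hold a site, and a match need not be a full site. Of the 28 promoter entries of 25 members, 4 held CTTTGA, against 13.8% of all 32851 promoter entries. The AP-1 letters TGANTCA were in 1 of the 28 entries (6.75% of all) and the TEAD letters GGAATG in 0 (12.6% of all), on either strand. The member windows were richer in CpG, with a median of 22 against 6 over all promoters, and Fzd1, Fzd7 and Sfrp2 held 12, 17 and 16. The members with an entry are not the same set as the 25 tested genes. The entries do not include Sfrp1, Sfrp4, Dkk3, Dkk4, Fzd2, Fzd3, Fzd6, Fzd8, Wnt5a, Wnt7b, Wnt8a and Wnt10a.

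Of the 24 tested genes with counts in the controls, the antagonists Sfrp1, Sfrp2 and Dkk3 had the largest log2 fold changes in both batches. Sfrp1 stood at 12.1, 12.7 and 16.8 CPM in the controls of batch LC and at 226, 239 and 227 CPM with the shRNA. In batch LA it stood at 15.6, 14.2 and 17.3 CPM against 204, 186 and 221 CPM. The lowest shRNA library was above 10 times the highest control in both batches, and the log2 fold changes were 4.06 ± 0.17 (adjusted p = 5.82e-13) and 3.70 ± 0.17 (adjusted p = 1.48e-12). The gene lies at chr8:23411502-23449632 on the plus strand. Sfrp2 rose from 2.09, 2.53 and 3.65 CPM to 73.9, 74.5 and 59.7 CPM in batch LC, and from 3.28, 3.04 and 2.92 CPM to 55.4, 44.8 and 53.7 CPM in batch LA. Its fold changes were 4.66 ± 0.25 (adjusted p = 8.62e-12) and 4.05 ± 0.25 (adjusted p = 4.56e-11) on the log2 scale, again without overlap. The gene lies at chr3:83766321-83774316 on the plus strand, directly after the window printed, and overlaps Gm26771, an antisense transcript averaging 2 counts.

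Dkk3 rose from 3.01, 2.81 and 4.08 CPM to 77, 61.1 and 75.9 CPM in batch LC, and from 2.74, 3.1 and 2.85 CPM to 57.3, 55.6 and 61.4 CPM in batch LA. The groups did not overlap, with log2 fold changes of 4.44 ± 0.27 (adjusted p = 3.74e-11) and 4.32 ± 0.27 (adjusted p = 7.43e-11). It lies at chr7:112116017-112159057 on the minus strand. Sfrp4 rose at a far lower level, from 0.392, 0.316 and 0.537 CPM to 2.22, 1.33 and 1.35 CPM in batch LC and from 0.223, 0.392 and 0.144 CPM to 1.16, 2.21 and 2.16 CPM in batch LA (1.98 ± 0.45, adjusted p = 0.000822, and 2.83 ± 0.48, adjusted p = 4.48e-05). Sfrp5, with 3 to 34 counts in every library, was not called in either batch (-0.63 ± 0.67 and -0.02 ± 0.67). Dkk2 was called in batch LC from 3 counts in the 3 controls and 34 with the shRNA (adjusted p = 0.00289). That is a ratio of 7.89 (exact 95% interval of the counts 2.48 to 40.2). In batch LA it held 14 against 36 counts (adjusted p = 0.207). No control library of Dkk2 held enough counts for the filter, so its calls here and below are given as a description only. Dkk1, the best known inhibitor of Lrp5 and Lrp6, held 1 count in the controls and 7 with the shRNA in batch LC, and 0 and 10 in batch LA, and was not tested.

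**Figure D3:**
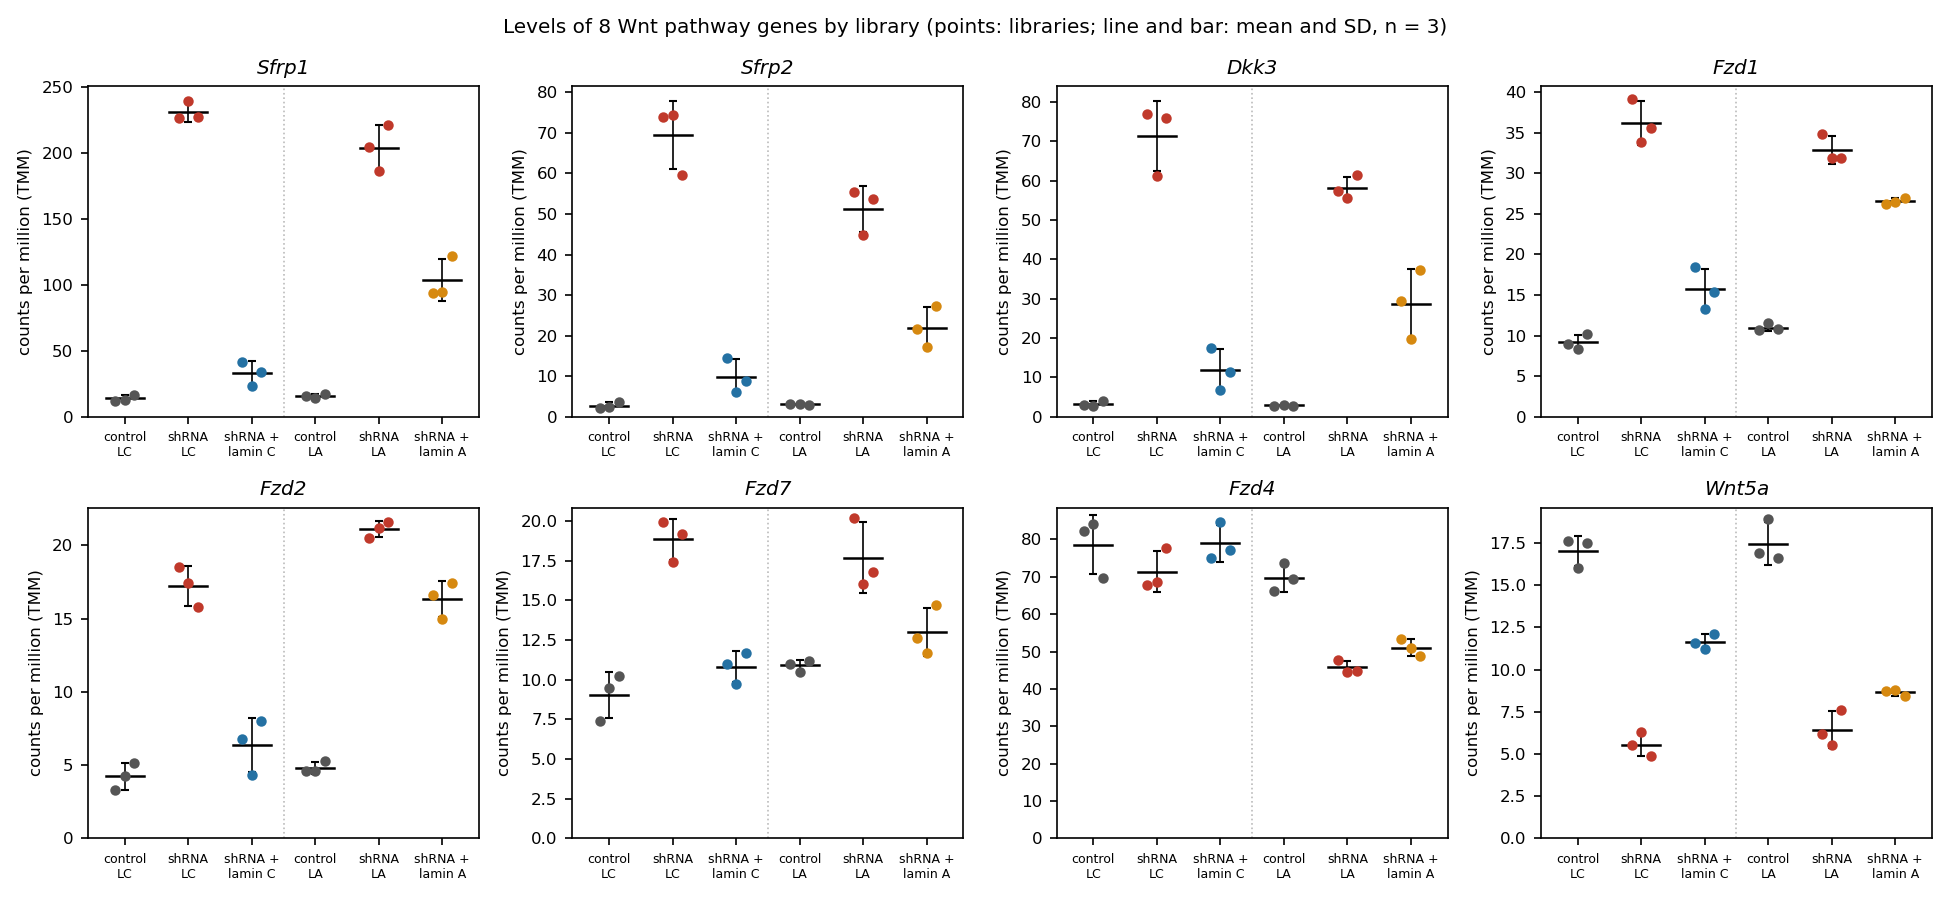
CPM in each library for 8 genes, by group (points, libraries; line and bar, mean and SD, n = 3; the dotted line divides batches LC and LA). Sfrp1, Sfrp2, Dkk3, Fzd1, Fzd2 and Fzd7 are high with the shRNA and Wnt5a is low, and the lamin C libraries lie nearer to their control than the lamin A libraries do for Sfrp1, Dkk3, Fzd1 and Fzd2.

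Summed within a family, the antagonists differed far more between the groups than the ligands or receptors. The 4 Sfrp genes summed to 4.68 ± 0.821 FPKM (SD, n = 3) in the controls and 83.3 ± 5.05 FPKM with the shRNA in batch LC, a ratio of 17.8, and to 5.14 ± 0.359 and 69.1 ± 5.75 FPKM in batch LA, a ratio of 13.4. The 4 Dkk genes, nearly all of it Dkk3, went from 0.975 ± 0.201 to 20.8 ± 2.56 FPKM and from 0.886 ± 0.051 to 16.9 ± 0.833 FPKM. The 19 Wnt genes changed little in sum on this scale, from 7.75 ± 0.388 to 8.49 ± 0.828 FPKM and from 7.68 ± 0.153 to 8.99 ± 0.608 FPKM. The 10 Frizzled genes went from 28.3 ± 0.761 to 37 ± 0.895 FPKM and from 29.2 ± 0.757 to 33.8 ± 0.97 FPKM. All these sums follow the scaling of the deposited FPKM. Its size lies below the total counts in the controls and above them with the shRNA, so scaling to totals would give larger rises. In control libraries the summed Sfrp level was below the summed Wnt level, and in every shRNA library it was above the summed Frizzled level. In a bulk tissue, more cells of a type and more RNA per cell cannot be told apart.

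**Figure D4:**
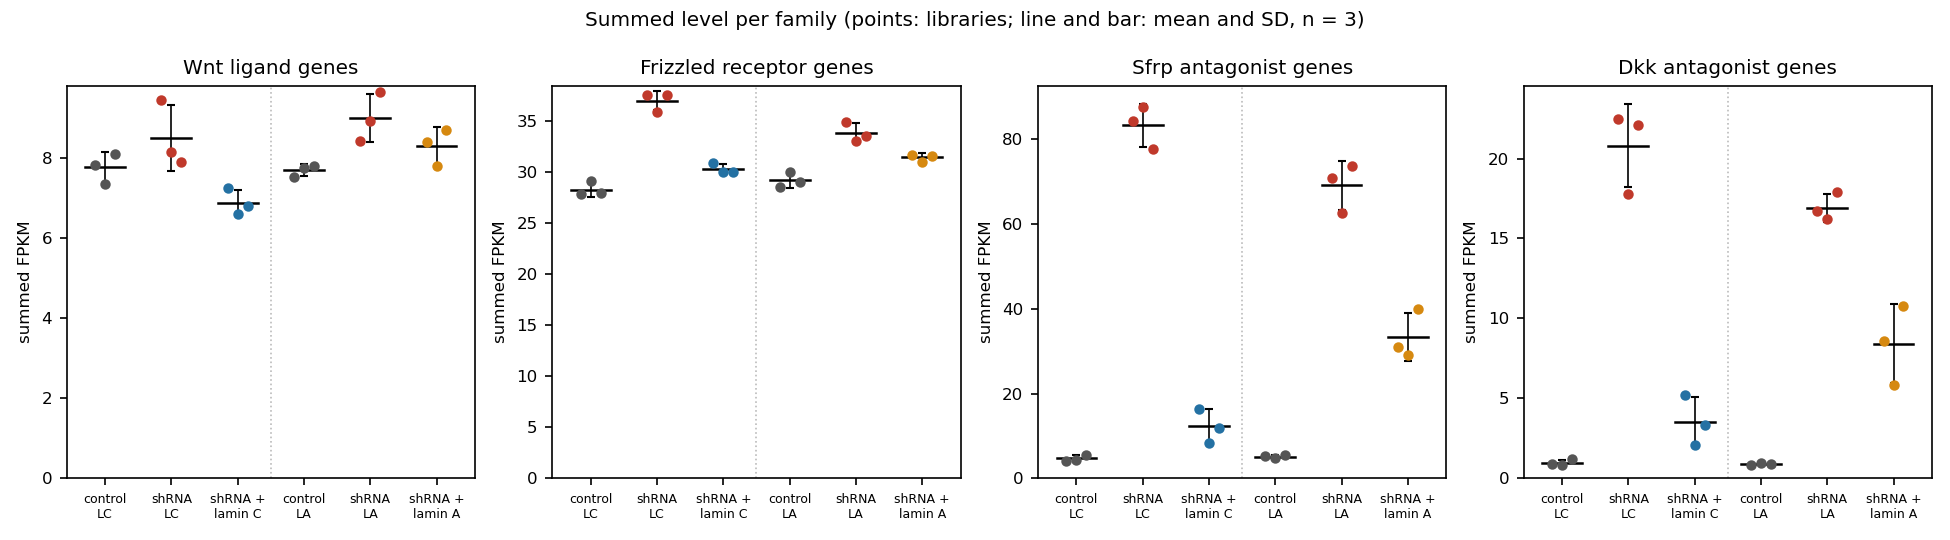
Summed FPKM of the Wnt, Frizzled, Sfrp and Dkk genes in each library (points, libraries; line and bar, mean and SD, n = 3). The Sfrp sum goes from 4.68 to 83.3 FPKM with the shRNA in batch LC and is 12.2 FPKM with lamin C, and the Wnt sum stays between 6.6 and 9.63 FPKM in all 18 libraries.

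With lamin C added, 2 of the 25 genes were higher and 11 were lower than with the shRNA alone, against 54.1% of all genes called (25.7% higher and 28.4% lower). The median over the 25 genes was -0.44, against -0.04 over all genes. This comparison shares the shRNA libraries with the one above and is not independent of it. Its median also includes Wnt7a, Dkk2, Wnt4 and Wnt2, which passed the filter through libraries where they are high. Sfrp1 stood at 41.6, 23.3 and 33.7 CPM with lamin C, Sfrp2 at 14.6, 6.23 and 8.85 CPM and Dkk3 at 17.5, 6.94 and 11.4 CPM. Each lamin C library was far below every shRNA library for these antagonists, with log2 fold changes of -2.81 ± 0.16, -2.83 ± 0.21 and -2.59 ± 0.23 (adjusted p = 6.93e-11, 1.91e-09 and 1.46e-08). Fzd1, Fzd2 and Fzd7 fell by 1.21, 1.44 and 0.80 on the log2 scale (SE 0.09, 0.16 and 0.11), Wnt9a fell by 0.70 ± 0.14 and Sfrp4 fell by 1.88 ± 0.44. Wnt7a held 3, 0 and 1 counts with lamin C. Wnt4 fell by 1.93 ± 0.59 (adjusted p = 0.00905), to 4, 3 and 3 counts. Wnt5a rose to 11.6, 11.2 and 12.1 CPM (1.07 ± 0.11, adjusted p = 9.83e-08), between the shRNA and control libraries and overlapping neither. Fzd6 had 0.26 ± 0.05 (adjusted p = 0.000217), and -0.06 with library totals alone. Wnt5b had -0.48 ± 0.17 (adjusted p = 0.0259), a call lost without the first lamin C library (-0.46, adjusted p = 0.0669), the third lamin C library (-0.47, adjusted p = 0.0606) or the first shRNA library (-0.34, adjusted p = 0.147).

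Against the control of its batch, the lamin C group still had 6 genes higher and 2 lower, where 15% of all genes were called (8.87% higher and 6.18% lower). With library totals alone 8 were higher and 1 lower. Sfrp1 was 1.24 ± 0.17 above control on the log2 scale (adjusted p = 6.15e-05), Sfrp2 1.83 ± 0.27, Dkk3 1.85 ± 0.29 and Fzd1 0.77 ± 0.10. The lowest lamin C library was above the highest control for each of these. Wnt5a stayed below control (-0.55 ± 0.10, adjusted p = 0.00133), with every lamin C library below every control. Fzd6 had -0.23 ± 0.05 (adjusted p = 0.0033), a call lost with library totals alone (-0.12, adjusted p = 0.111) and with no filter on low counts (-0.22, adjusted p = 0.0559). Fzd2 had 0.59 ± 0.18 (adjusted p = 0.0295), with overlapping groups, and was lost without the first control (0.43, adjusted p = 0.15), the second control (0.59, adjusted p = 0.0671), the first lamin C library (0.55, adjusted p = 0.1) or the third lamin C library (0.39, adjusted p = 0.184). Dkk2 had 21 counts against 3, a ratio of 6.08 (exact 95% interval 1.82 to 31.8; adjusted p = 0.0434). It was lost on leaving out any 1 of the 3 controls (adjusted p 0.0552, 0.1 and 0.136) or the first or second lamin C library (0.109 and 0.171). Fzd7, Wnt9a, Sfrp4, Wnt4 and Fzd4 had 0.26 ± 0.12, -0.18 ± 0.14, 0.11 ± 0.53, 0.12 ± 0.77 and 0.01 ± 0.07, none past the threshold. Fzd9 had 1.05 ± 0.36 (adjusted p = 0.0577), at 2.36, 1.97 and 1.79 CPM with lamin C against 0.751, 1.68 and 0.501 CPM, and passed without the second control (1.68, adjusted p = 0.00723).

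With lamin A added, 1 of the 25 genes was higher and 8 were lower than with the shRNA alone, against 29.8% of all genes called (16.1% higher and 13.7% lower). With library totals alone 0 were higher and 12 lower. Sfrp1 stood at 94, 94.3 and 122 CPM, Sfrp2 at 21.6, 17.2 and 27.2 CPM and Dkk3 at 29.4, 19.8 and 37.2 CPM. No lamin A library reached the shRNA range of batch LA for them, and the log2 fold changes were -0.98 ± 0.15, -1.22 ± 0.20 and -1.01 ± 0.21 (adjusted p = 5.48e-05, 0.000103 and 0.00122). Fzd7 fell by 0.44 ± 0.11 (adjusted p = 0.0055), to 12.6, 11.7 and 14.7 CPM. Wnt7a held 0, 2 and 5 counts with lamin A. Fzd1 stood at 26.2, 26.5 and 27 CPM (-0.30 ± 0.09, adjusted p = 0.0145), a call lost without the first shRNA library (-0.26, adjusted p = 0.0692). Fzd2 stood at 16.6, 15 and 17.4 CPM and did not pass the threshold in the main test (-0.37 ± 0.14, adjusted p = 0.0582). Fzd5 had -0.40 ± 0.12 (adjusted p = 0.0133), lost without the second lamin A library (-0.38, adjusted p = 0.0505). Wnt10b had -0.79 ± 0.29 (adjusted p = 0.0454), lost on leaving out any of the 3 lamin A libraries (adjusted p 0.061, 0.168 and 0.0826) or the first or second shRNA library (0.0766 and 0.173). Wnt5a rose to 8.75, 8.79 and 8.41 CPM (0.43 ± 0.11, adjusted p = 0.00553), and had 0.22 (adjusted p = 0.118) with library totals alone.

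Against the control of batch LA, the lamin A group had 8 genes higher and 4 lower, where 46.2% of all genes were called (24.1% higher and 22.1% lower). With library totals alone 12 were higher and 3 lower. Sfrp1 was 2.72 ± 0.16 above control (adjusted p = 2.81e-10), Sfrp2 2.83 ± 0.25 (adjusted p = 2.9e-08) and Dkk3 3.31 ± 0.28 (adjusted p = 1.25e-08). Fzd1 and Fzd2 were 1.27 ± 0.10 and 1.76 ± 0.16 above control (adjusted p = 4.18e-09 and 4.85e-08), and Sfrp4 was 1.93 ± 0.51 above it (adjusted p = 0.00447). The Sfrp4 call was lost in limma on log2(FPKM + 1) with no filter (0.21 on that scale, which understates changes of low genes; adjusted p = 0.0609). Wnt2, known in lung and heart development, held 24, 28 and 43 counts with lamin A against 3, 3 and 0 in the controls (3.58 ± 0.60, adjusted p = 6.56e-05). Its lamin A libraries also lay above every shRNA library of the batch in CPM, but that difference did not pass the threshold (0.89 ± 0.42, adjusted p = 0.123). Wnt5b had 0.55 ± 0.18 (adjusted p = 0.0156), lost without the first control (0.52, adjusted p = 0.0514), the second control (0.42, adjusted p = 0.0923) or the third lamin A library (0.41, adjusted p = 0.0986). Wnt5a, Fzd4 and Fzd6 were below control by -1.01 ± 0.10, -0.45 ± 0.07 and -0.42 ± 0.05 (adjusted p = 2e-07, 5.43e-05 and 1.05e-06). Fzd3 had -0.49 ± 0.18 (adjusted p = 0.0286), lost without the second control (-0.48, adjusted p = 0.0678), the third control (-0.46, adjusted p = 0.0751), the second lamin A library (-0.49, adjusted p = 0.0637) or the third lamin A library (-0.4, adjusted p = 0.117).

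**Figure D5:**
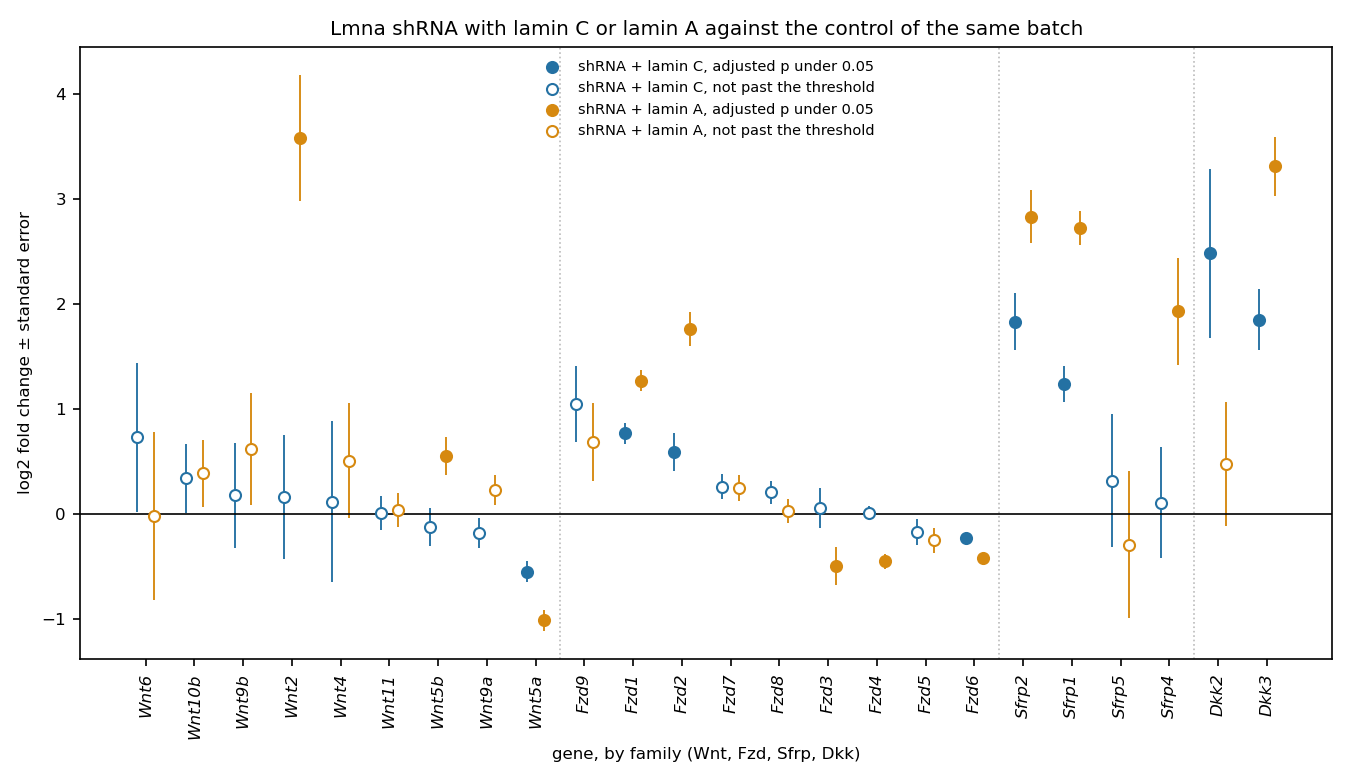
Log2 fold change ± standard error of 24 tested genes with shRNA and lamin C (blue) or shRNA and lamin A (orange) against the control of the same batch; filled points have an adjusted p under 0.05. Sfrp1 lies at 1.24 with lamin C and 2.72 with lamin A, Fzd2 at 0.59 and 1.76, and Wnt5a at -0.55 and -1.01.

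The effects were then compared between the batches in the same fit. For the shRNA effect, edgeR called 0 of the 25 genes as different between batch LC and batch LA, against 0.00559% of all genes called. At an unadjusted p under 0.05 there were 5 (Fzd1, Fzd3, Fzd4, Fzd7 and Wnt4), and DESeq2 called 0. With no filter on low counts edgeR called 2, Fzd4 (0.48) and Sfrp2 (0.62). For the change from shRNA to added lamin, 1 gene had a higher and 6 had a lower value with lamin C than with lamin A, against 18.7% of all genes called (8.84% higher and 9.9% lower). Sfrp1 differed by -1.83 ± 0.21 (adjusted p = 1.83e-05), Sfrp2 by -1.61 ± 0.29, Dkk3 by -1.58 ± 0.31, Fzd2 by -1.07 ± 0.21, Fzd1 by -0.91 ± 0.13 and Wnt5a by 0.64 ± 0.15 (adjusted p = 0.000704, 0.00138, 0.00152, 0.00011 and 0.00618). Each of these 6 differences means that the level moved further back towards its control with lamin C. Wnt4 differed by -2.42 ± 0.79 (adjusted p = 0.0383) at a level of 10 counts in the 3 lamin C libraries. That call was lost without the second or the third library of the lamin A, lamin C or batch LC shRNA group or without the first or the third shRNA library of batch LA (adjusted p from 0.0577 to 0.143).

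The distance that remained from control was also compared. It was smaller with lamin C than with lamin A for Sfrp1 (-1.48 ± 0.23, adjusted p = 0.000393) and Fzd2 (-1.17 ± 0.24, adjusted p = 0.0031), and Fzd4 differed by 0.46 ± 0.11 (adjusted p = 0.00628). For Fzd4 the difference between the batches in the shRNA effect was of the same size, 0.47 ± 0.11, though not past the threshold (adjusted p = 0.446), and that in the lamin effects was -0.01 ± 0.11. In all 2 genes were called with a higher value with lamin C and 5 with a lower one, against 14.6% of all genes (7.29% higher and 7.35% lower), and 1 and 6 with library totals alone. Sfrp2 did not pass (adjusted p = 0.0925) but did without the first lamin C library (-1.38, adjusted p = 0.00675). The other calls were lost on leaving out 1 library. Dkk3 had -1.47 ± 0.42 (adjusted p = 0.0221), lost without the first control of batch LA (-1.42, adjusted p = 0.0501), the third control of batch LC (-1.29, adjusted p = 0.0758) or the third lamin A library (-1.24, adjusted p = 0.0541). Fzd1 had -0.50 ± 0.14 (adjusted p = 0.0211), lost without the same 2 controls (-0.48, adjusted p = 0.051, and -0.41, adjusted p = 0.0654) or the second lamin C library (-0.39, adjusted p = 0.0607). Wnt2 had -3.42 ± 0.89 (adjusted p = 0.014), lost without the third control of batch LC (-2.7, adjusted p = 0.0853). Wnt5a had 0.46 ± 0.15 (adjusted p = 0.0419) and was lost without any 1 of the 6 lamin libraries, the first or second control of batch LA or the second control of batch LC (adjusted p from 0.0533 to 0.108). Lamin C and lamin A were each given in 1 batch, so the lamin and any other difference between the batches cannot be told apart, and the Lmna transcript was also 1.21 ± 0.12 higher on the log2 scale with lamin C in the same comparison of changes.

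Other genes of the pathway were read from lists, and their counts stand against the 62.9% of all genes called with the shRNA in batch LC (33.3% higher, 29.6% lower) and 61.4% in batch LA (32.4% higher, 29% lower). The counts are given as a description. Of 16 tested inhibitors and modulators of Wnts at the cell surface outside the Sfrp and Dkk families, 7 rose and 3 fell with the shRNA in batch LC. In batch LA 7 rose and 2 fell, and the medians were 0.36 and 0.74 against 0.05 over all genes. The list holds genes that are not inhibitors alone, such as Sulf1 and Sulf2, so its counts do not measure inhibition. Frzb, a secreted Frizzled-related protein also named Sfrp3, rose from 4.08, 5.61 and 4.9 CPM to 92.2, 79.1 and 92.4 CPM in batch LC and from 5.86, 4.77 and 4.26 CPM to 78.3, 81.7 and 89 CPM in batch LA. Its log2 fold changes, 4.18 ± 0.22 and 4.06 ± 0.21 (adjusted p = 4.5e-12 and 6.83e-12), are next to those of Sfrp1 and Sfrp2, and it stood at 17.6, 8.55 and 12.5 CPM with lamin C and 39.3, 32.2 and 52.4 CPM with lamin A. Sulf1 and Sulf2, sulfatases that trim the heparan sulfate to which Wnts bind, rose by 2.22 ± 0.11 and 1.37 ± 0.08 in batch LC and 2.47 ± 0.11 and 1.11 ± 0.08 in batch LA. Trabd2b, a protease that inactivates Wnts, had -1.37 ± 0.10 and -1.43 ± 0.10.

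Of the 7 co-receptors, 5 rose in batch LC and 3 in batch LA, and none fell, with medians of 0.64 and 0.25. Ror2, a receptor for Wnt5a, rose by 1.44 ± 0.19 and 1.21 ± 0.19, and Ptk7, a planar polarity co-receptor, by 1.07 ± 0.12 and 1.19 ± 0.12. Lrp5 and Lrp6 did not pass the threshold with the shRNA (-0.11 ± 0.07 and 0.11 ± 0.05 in batch LC, 0.15 ± 0.07 and -0.01 ± 0.05 in batch LA). Wls, which carries Wnts to the cell surface, rose from 73.4, 64.7 and 65.8 CPM to 128, 123 and 119 CPM in batch LC and from 68, 61.2 and 61.3 CPM to 123, 118 and 120 CPM in batch LA (0.86 ± 0.06 and 0.92 ± 0.06). It was 1 of 7 tested genes of Wnt secretion and agonists, of which 3 rose and 1 fell in each batch. The receptor gene Lgr6 was the one that fell (-0.75 ± 0.08 and -1.05 ± 0.08).

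Genes known as targets of beta-catenin were split. Of 16 tested, 9 rose and 3 fell in batch LC and 11 rose and 3 fell in batch LA, with medians of 0.47 and 0.93. Axin2, the most general target and a feedback inhibitor, rose slightly, from 5.26, 5.51 and 4.47 CPM to 6.3, 6.83 and 7.39 CPM in batch LC (0.43 ± 0.12, adjusted p = 0.00474) and from 4.49, 4.67 and 4.18 CPM to 7.17, 6.67 and 7.49 CPM in batch LA (0.68 ± 0.12, adjusted p = 8.06e-05). Its groups did not overlap in either batch. Nkd2, another feedback inhibitor, rose far more, from 2.25, 2.14 and 1.93 CPM to 33.3, 26.8 and 27.7 CPM and from 1.78, 2.02 and 1.44 CPM to 35.1, 28 and 25.5 CPM (3.79 ± 0.16 and 4.07 ± 0.16). Wisp2, a matricellular protein, rose by 4.65 ± 0.27 and 4.25 ± 0.27. Nkd1 (0.36 ± 0.24 and 0.51 ± 0.25) and Lef1 (1.05 ± 0.51 and 0.67 ± 0.58) did not pass the threshold. Axin2 did not differ from the shRNA level past the threshold with lamin C (-0.10 ± 0.12, adjusted p = 0.505) and was lower with lamin A (-0.47 ± 0.12, adjusted p = 0.00518), and the difference between these changes did not pass either (0.37 ± 0.17, adjusted p = 0.136).

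Of 33 cytoplasmic and nuclear components, 8 rose and 15 fell in batch LC and 6 rose and 13 fell in batch LA, with medians of -0.12 and -0.11. Ctnnb1, which encodes beta-catenin, had -0.25 ± 0.04 and -0.19 ± 0.04 with TMM, but 0.17 and 0.25 with library totals alone, so the direction of this small value follows the scaling. Pygo1, a nuclear co-activator of beta-catenin, had -0.95 ± 0.10 and -1.11 ± 0.10. Of 26 genes of planar polarity and calcium signalling, 8 rose and 10 fell in batch LC and 7 rose and 10 fell in batch LA. Nfatc4 rose (0.83 ± 0.10 and 0.85 ± 0.10), whereas Ppp3cb, a calcineurin subunit, had -0.61 ± 0.05 and -0.65 ± 0.05.

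Markers of several cell types rose or fell with the shRNA, and those of others mostly did not pass the threshold. All 10 markers of activated fibroblasts rose in both batches, and their summed level went from 244 to 371 CPM in the controls of batch LC to 4690 to 6010 CPM with the shRNA, and was 718 to 1240 CPM with lamin C. In batch LA it went from 351 to 420 CPM to 5570 to 5790 CPM, and was 2650 to 3980 CPM with lamin A. None of these 10 markers was at 0 in any group. Of 10 general fibroblast markers, 9 rose in each batch and 0 and 1 fell (2350 to 2850 CPM against 6620 to 7530 CPM in batch LC, 2590 to 2830 CPM against 6830 to 7470 CPM in batch LA). Of 10 macrophage markers, 9 rose in each batch (319 to 352 CPM against 1170 to 1240 CPM in batch LC, 315 to 341 CPM against 1110 to 1150 CPM in batch LA). All 8 markers of T and NK cells rose in both batches, to sums of no more than 15.1 CPM. Of 4 tested atrial markers 3 rose and 1 fell in each batch (152 to 273 CPM against 10500 to 15200 CPM in batch LC, 223 to 302 CPM against 9360 to 10100 CPM in batch LA). In every group 3 of the 6 listed atrial genes averaged under 1 CPM, so this sum rests on few genes and is not read as atrial cells. Of 7 tested skeletal muscle markers 5 rose in each batch (146 to 377 CPM against 448 to 823 CPM, and 220 to 336 CPM against 606 to 725 CPM). Their sum was 542 to 743 CPM with lamin C and 956 to 1190 CPM with lamin A. In the controls 5 of the 8 listed genes averaged under 1 CPM, so this sum rests on few genes and is not read as skeletal muscle cells. Of 6 lymphatic endothelial markers 4 and 5 rose and 1 fell, of 10 smooth muscle and pericyte markers 3 and 4 rose and 5 fell, and of 6 Schwann cell markers 3 rose in each batch and 1 and 0 fell. In each batch 1 of 6 tested markers of epicardium and mesothelium, 1 of 3 of neutrophils and 1 of 4 of adipocytes rose, and 0 fell. Of 5 B cell markers 1 rose in batch LC and 1 fell in batch LA. All 10 ventricular cardiomyocyte markers fell, from 85100 to 89100 CPM to 36500 to 41600 CPM in batch LC and from 82600 to 85300 CPM to 38900 to 40600 CPM in batch LA. Of 10 endothelial markers, 9 fell and 1 rose in each batch (1150 to 1370 CPM against 757 to 876 CPM in batch LC). The part of these cell types in the values of the Wnt, Frizzled, Sfrp and Dkk genes was not tested.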

How the data were processed

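RNA from the apex of the heart was measured in 18 libraries. Libraries were poly(A)-selected and directional, per the labels' protocols. HISAT2 2.0.5, featureCounts 1.5.0-p3, StringTie 1.3.3b, DESeq2 1.20.0 and the mm10 build are named in the submitters' processing notes, with no role given, and whether the counting used strand is not stated there. The authors deposited whole-number counts per gene, which were tested, and FPKM per gene, which were used to compare levels between genes. The deposited FPKM of each library fit a single scaling size (31229603 for the first control of batch LC against a total of 35513207 counts). For the first shRNA library of batch LC it was 49472998 against 41259968, so the scaling was not by total counts alone.

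The counts were fitted with edgeR 4.0.16 (quasi-likelihood F test, TMM factors, filterByExpr, 6 groups, 12 residual degrees of freedom) in R 4.3.3, with Benjamini-Hochberg adjustment over 17876 genes and a threshold of 0.05. CPM values use the TMM factors. Genes named were those averaging 1 CPM or more in any group or called within a batch, up to 4 called genes per pathway list by smallest p, and Axin2, Lef1, Nkd1, Lrp5, Lrp6, Ctnnb1, Frzb and Lmna. The genes and lists were chosen with earlier results of these data known. Ranges and floors for low counts use 3 counts and exact 95% intervals. Promoters came from RefSeq (GRCm38.p6).

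Tested on simulated data for shRNA against control in batch LC (17321 genes), the fit recovered 76.12%, 95.52% and 100% of 67, 67 and 66 genes changed 1.5-, 2- and 4-fold, with 9 false calls. The changed genes averaged above 1 CPM and rose and fell in equal number. Recovery and false calls were therefore not tested for genes of few counts or under the shift in composition of the real libraries. Alternatives were DESeq2 1.42.0, RLE size factors, library totals alone, no filter, limma 3.58.1 on log2(FPKM + 1) and log2(FPKM + 0.1), the groups of a comparison alone, mitochondrial genes removed, the replicate number as a block, and each library or the third controls left out. No libraries were duplicates (chi-square per degree of freedom at least 6.38).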

Additional observations from a re-analysis of the deposited data

Results flagged for a closer look

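Several differences between the lamin C and lamin A groups passed the test of the difference itself (edgeR quasi-likelihood test, adjusted over all genes). For the change from shRNA to added lamin, these were Sfrp1 (-1.83 ± 0.21 on the log2 scale, SE), Sfrp2 (-1.61 ± 0.29), Dkk3 (-1.58 ± 0.31), Fzd2 (-1.07 ± 0.21), Fzd1 (-0.91 ± 0.13), Wnt4 (-2.42 ± 0.79) and Wnt5a (0.64 ± 0.15), where a negative value means a lower value with lamin C. For the distance that remained from control, they were Sfrp1 (-1.48 ± 0.23), Dkk3 (-1.47 ± 0.42), Fzd2 (-1.17 ± 0.24), Fzd1 (-0.50 ± 0.14), Wnt2 (-3.42 ± 0.89), Fzd4 (0.46 ± 0.11) and Wnt5a (0.46 ± 0.15). For Fzd4 the difference between the batches was 0.47 ± 0.11 for the shRNA effect (not past the threshold) and -0.01 ± 0.11 for the lamin effects. Each lamin was given in 1 batch only, so lamin and batch cannot be told apart. Wnt4 and Wnt2 rest on few counts and passed the filter through libraries where they are high, so their calls are given as a description only. The report names the libraries whose removal ends a call.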

How the results depend on the processing

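The genes called in each comparison were checked in every alternative that tested them. All such alternatives kept the call for 12 of 13 and 13 of 16 genes for the shRNA in batches LC and LA. The numbers were 11 of 13 and 5 of 9 for lamin C and lamin A against shRNA, and 5 of 8 and 9 of 12 against control. They were 6 of 7 for the difference in lamin effects and 3 of 7 for the difference in distance from control. An alternative that left a gene out or gave it no adjusted p was not counted, as in limma with a filter for genes of low FPKM. With library totals alone, 20 genes were higher and 1 lower with the shRNA in batch LC, 2 were lower in batch LA, 1 was higher with lamin C and 0 with lamin A against shRNA, 1 was lower with lamin C against control, and 1 was higher in the difference in distance from control. They also turned the sign with the shRNA in batch LC for Fzd4 (0.29), Fzd8 (0.41), Fzd5 (0.41), Ctnnb1 (0.17) and Lrp5 (0.31), and in batch LA for Fzd8 (0.3), Fzd3 (0.03), Ctnnb1 (0.25) and Lrp6 (0.43). Against shRNA they did so with lamin C for Fzd4 (-0.17), Fzd6 (-0.06), Ctnnb1 (-0.14) and Lrp5 (-0.23) and with lamin A for Ctnnb1 (-0.17), and against control with lamin A for Ctnnb1 (0.08). These totals leave out the composition factors, which moves the median of all genes with the shRNA from 0.05 to 0.47 and 0.48. With limma, 7 genes were higher with the shRNA in batch LC under log2(FPKM + 1) and 7 under log2(FPKM + 0.1), where fewer low genes were tested, and 2, 2 and, with no filter, 3 were higher with lamin A against shRNA, as were 2 with mitochondrial genes removed. With no filter on low counts in edgeR, 1 gene was lower with lamin C against control, 2 differed in the shRNA effect and 8 were lower in the difference in distance from control. For that last difference, 1 gene was higher and 2 were lower without the third controls, and leaving out 1 library gave from 1 to 3 higher and from 2 to 6 lower, and the cause was not tested. The replicate numbers did not pair the libraries (0 of 18 correlations above 0.1, from -0.0459 to 0.0617). The replicate block gave 12 higher and 2 lower with the shRNA in batch LC and 12 and 3 in batch LA, and 1 higher in the difference in distance from control. In 46 results a value that was not called had another sign under some alternative. The values in the main test were no larger than 0.37 in size, and the 97 alternative values no larger than 0.77. Depth limits the 12 genes that did not pass the filter and Wnt2, Wnt4, Wnt7a and Dkk2, which rest on few counts and whose calls are given as a description only.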
